A study of Mus musculus with 16 samples.

Results

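The 34 nuclear genes examined here encode subunits of respiratory complex I, the NADH:ubiquinone oxidoreductase of the inner mitochondrial membrane. They were chosen by symbol alone, as the Ndufa, Ndufb, Ndufc, Ndufs and Ndufv genes numbered in digits, out of 19938 genes that the array names with a single symbol. Each gene was represented by its probe set with the highest mean over the 16 arrays, and 30 of the 34 had only 1 such probe set. All 34 passed the filter on dim probe sets, and the mean of the dimmest lay at percentile 66.4 of all single-symbol probe sets, so none was close to the filter. Ndufb1 and Ndufb4, which also encode subunits, were not analysed here.

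Complex I takes electrons from NADH, passes them along iron-sulfur clusters to ubiquinone and couples this to proton pumping. Its N module oxidizes NADH, its Q module reduces ubiquinone, and its membrane arm, built around subunits that mitochondrial DNA encodes, pumps protons. In skeletal muscle the enzyme is abundant in oxidative fibers, and calcineurin, the calcium-activated phosphatase targeted in these mice, is known for its part in maintaining oxidative fiber genes.

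Whole gastrocnemius, a mostly fast muscle of the calf, was taken from 16 male C57Bl6J mice, and the RNA of each mouse was hybridized to its own Affymetrix Mouse Gene 1.0 array. All groups were on a high-fat diet in which butter fat supplied 40% of the calories, for 8 weeks or more. In one line, 4 arrays came from mice labelled knockout (KO) for Ppp3cb, the beta catalytic subunit of calcineurin, in the whole body, and 4 from mice labelled wild type (WT). In the other, 4 came from mice in which Ppp3r1, the regulatory subunit, was deleted in skeletal muscle by a Cre recombinase under Mlc1f control, and 4 from WT mice of that line. Whether the WT mice carried Cre or floxed alleles is not given in the sources used here, and age is not given either. Each label gives its own animal number, so a replicate is a mouse, and 4 arrays a group limit the precision of every value.

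Values are log2 array signals, which can be compared between arrays for 1 probe set but not between probe sets as amounts of RNA. The median of all probe sets lay between 6.68 and 6.77 on the arrays of the Ppp3cb line and between 6.81 and 6.94 on those of the Ppp3r1 line. The targeted gene contradicted the labels on 4 arrays of the Ppp3cb line. Ppp3cb read 10.48 and 10.22 in the KO-labelled animals 18 and 5 but 11.74 and 11.61 in the KO-labelled animals 6 and 9. It read 11.80 and 11.67 in the WT-labelled animals 12 and 2 but 10.37 and 10.23 in the WT-labelled animals 23 and 24. Results of that line are therefore given by label and, as values only, by whether Ppp3cb lay below or above 11. In the Ppp3r1 line Ppp3r1 read 9.17 ± 0.14 (SD, n = 4) on the KO arrays, against 9.49 ± 0.14 (SD, n = 4) for WT, with no overlap between the groups. That difference of -0.32 (SE 0.13) did not pass the test over all probe sets (limma adjusted p = 0.372). Other cells of the muscle keep Ppp3r1 in this model, and whether the probes lie in the deleted part was not tested. The 6 muscle fiber markers (Ckm, Acta1, Mb, Myh4, Tnnt3 and Pvalb) were bright on every array, with a summed linear signal of at least 98851.

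The sequences upstream of 4 subunit genes are shown because these genes mark the extremes of the Ppp3r1 comparison described next: Ndufs5, Ndufb6 and Ndufs3 had the smallest p-values, and Ndufs7 had the largest positive difference. Each window is the 250 bases before the transcription start in RefSeq's GRCm38.p6 tables, on the gene's own strand. It lies at chr4:123718187-123718436 (minus strand) for Ndufs5, chr4:40279422-40279671 (minus) for Ndufb6, chr2:90904722-90904971 (minus) for Ndufs3 and chr10:80249199-80249448 (plus) for Ndufs7. Capitals mark matches, on either strand, to 1 of 4 motifs of factors known to act on mitochondrial genes.
Ndufs5: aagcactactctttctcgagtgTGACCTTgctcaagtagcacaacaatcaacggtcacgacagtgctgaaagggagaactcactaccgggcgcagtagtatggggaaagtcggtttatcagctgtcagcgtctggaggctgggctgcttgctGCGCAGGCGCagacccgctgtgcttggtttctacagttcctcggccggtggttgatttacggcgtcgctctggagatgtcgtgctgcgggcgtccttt
Ndufb6: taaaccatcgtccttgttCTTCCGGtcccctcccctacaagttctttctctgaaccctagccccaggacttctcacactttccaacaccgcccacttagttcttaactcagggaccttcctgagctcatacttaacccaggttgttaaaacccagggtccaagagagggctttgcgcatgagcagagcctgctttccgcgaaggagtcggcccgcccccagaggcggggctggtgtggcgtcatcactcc
Ndufs3: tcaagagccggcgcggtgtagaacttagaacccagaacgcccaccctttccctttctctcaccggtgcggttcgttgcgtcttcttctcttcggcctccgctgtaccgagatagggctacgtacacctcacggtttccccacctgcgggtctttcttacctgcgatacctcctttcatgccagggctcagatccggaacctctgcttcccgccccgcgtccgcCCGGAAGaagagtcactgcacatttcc
Ndufs7: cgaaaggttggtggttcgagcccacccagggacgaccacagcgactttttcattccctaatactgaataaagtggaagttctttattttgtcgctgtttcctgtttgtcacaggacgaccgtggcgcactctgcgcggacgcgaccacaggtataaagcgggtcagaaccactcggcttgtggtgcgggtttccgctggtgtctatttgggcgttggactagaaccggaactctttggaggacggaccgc
The capitals in Ndufs5 are an estrogen-related receptor (ERR) core motif, AAGGTCA read on the opposite strand, 228 to 222 bases before the start, and an NRF1 motif, GCGCA and GCGC with 1 base of any kind between them, 98 to 89 bases before it. The capitals in Ndufb6 and Ndufs3 are ETS motifs, CCGGAAG, the first read on the opposite strand at 232 to 226 bases and the second at 27 to 21 bases before the start. The Ndufs7 window held no match, and its only match, to the YY1 motif AAGATGGC, lay in the 50 bases after the start.

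Across the subunits, 31 of 34 genes matched a RefSeq promoter, and 33 promoters of 300 bases (250 before and 50 after the start) were searched. NRF1 motifs were in 21.2% of the members' promoters, against 4.6% of all promoters of the same length and 8.44% of those of genes tested on the arrays. YY1 motifs were in 21.2%, against 2.75% of all promoters and 3.85% of those of tested genes. ETS motifs were in 12.1%, against 8.86% and 14.8%, and ERR motifs in 6.06%, against 4.72% and 3.39%. Ndufa5 has 2 overlapping windows, both with an NRF1 match. With each gene counted once, NRF1 motifs were in 19.4% of the members and 9.84% of tested genes. By gene the shares were 22.6% and 4.66% for YY1, 12.9% and 17.1% for ETS, and 6.45% and 4.12% for ERR. The 4 motifs have different letters, and overlapping matches were not merged. A match is a run of letters and not evidence of binding. In the Ppp3r1 comparison the median log2 difference was -0.30 for the 4 members with an ETS match and -0.14 for the 27 without, -0.15 for the 6 with an NRF1 match and -0.18 for the 25 without, -0.14 for the 7 with a YY1 match and -0.18 for the 24 without, and -0.32 for the 2 with an ERR match and -0.17 for the 29 without. These differences were not tested.

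The comparison of Ppp3r1 KO with WT muscle asked whether complex I transcripts differ when calcineurin is removed from muscle fibers. In KO muscle 32 of the 34 subunits had lower means than in WT, and none passed the test over all probe sets. The median log2 difference was -0.18, against 0.02 over all 15252 probe sets tested (6983 of them lower) and -0.03 over the 7320 at least as bright as the dimmest member (4265 lower). No member was called lower at a limma adjusted p under 0.05, where 0.00656% of probe sets were (1, Myh2), and none was called higher. At an unadjusted p under 0.05, 10 members were lower, where 5.35% of all probe sets were, and 0 members were higher, where 6.37% were. For 3 members every KO array lay below every WT array, where this held for 1.71% of all probe sets, and for 0 members did KO lie wholly above WT, where this held for 3.15%. Because the subunits vary together from array to array, as shown further on, the 34 are not independent readings of 1 effect. Myh2, the myosin of oxidative type IIa fibers, fell by 2.08 on the log2 scale (SE 0.25, limma adjusted p = 0.00186), from 12.05 ± 0.51 (SD, n = 4) on the WT arrays to 9.97 ± 0.52 (SD, n = 4) on the KO arrays. In whole muscle, fewer fibers of a type and less RNA per fiber cannot be told apart.

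**Figure D1:**
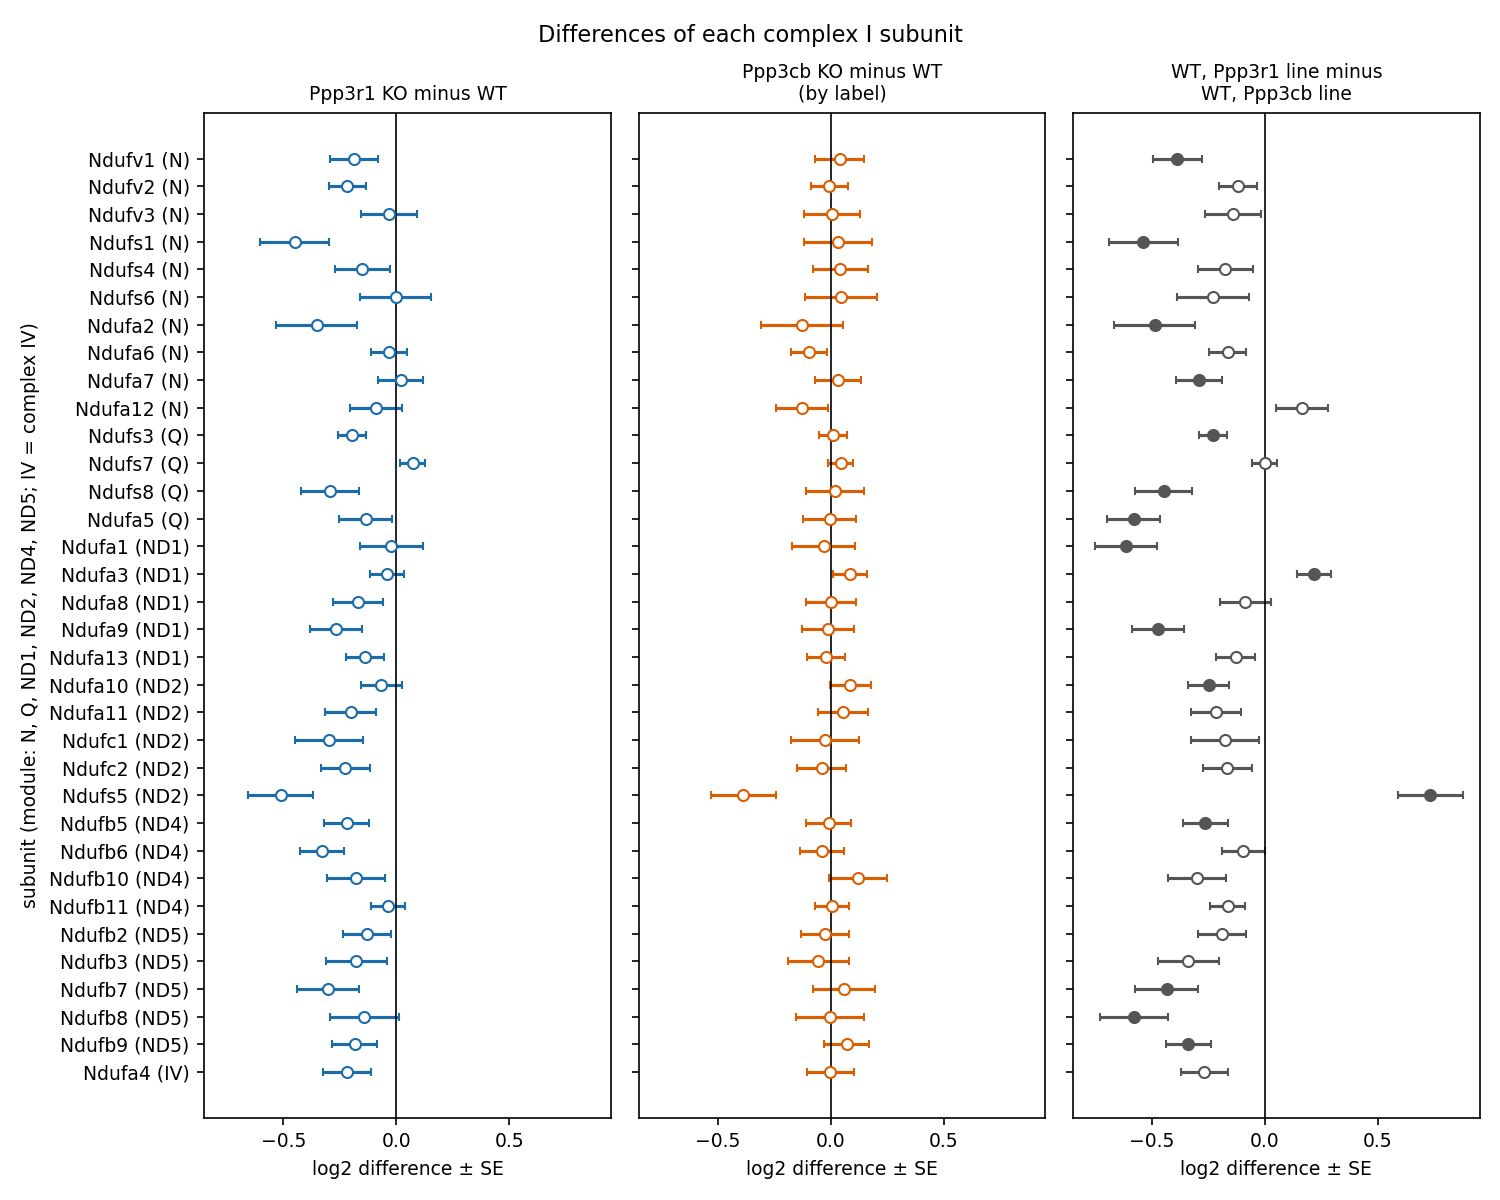
Log2 differences (KO minus WT, with the SE as bars) of the 34 complex I subunits in the Ppp3r1 line and in the Ppp3cb line by label. The last panel shows WT of the Ppp3r1 line minus WT of the Ppp3cb line. Filled points have a limma adjusted p under 0.05. In the Ppp3r1 line 32 of 34 points lie below 0, and in the Ppp3cb line 17 of 34 do.

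Ndufs5, an accessory subunit of the membrane arm, had the smallest p. It read 7.77, 8.20, 8.02 and 8.25 in KO animals 331, 335, 414 and 416 and 8.74, 8.44, 8.56 and 8.55 in WT animals 334, 336, 413 and 415. Every KO array lay below every WT array, a 1.43-fold lower mean (log2 difference -0.51, SE 0.14, limma adjusted p = 0.363; two-sided exact permutation p = 0.0286, the smallest that 4 against 4 arrays can give). A second probe set that the array assigns to both Ndufs5 and its pseudogene Ndufs5-ps was not used, and whether the pseudogene adds to the signal used was not tested. Ndufb6, an accessory subunit of the proton-pumping arm, read 11.35, 11.52, 11.12 and 11.57 in the KO animals in the same order, and 11.92, 11.60, 11.68 and 11.67 in the WT animals. KO lay below WT throughout, though narrowly, with 11.57 as the highest KO and 11.60 as the lowest WT value (log2 difference -0.33, SE 0.10, limma adjusted p = 0.363; exact permutation p = 0.0286).

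**Figure D2:**
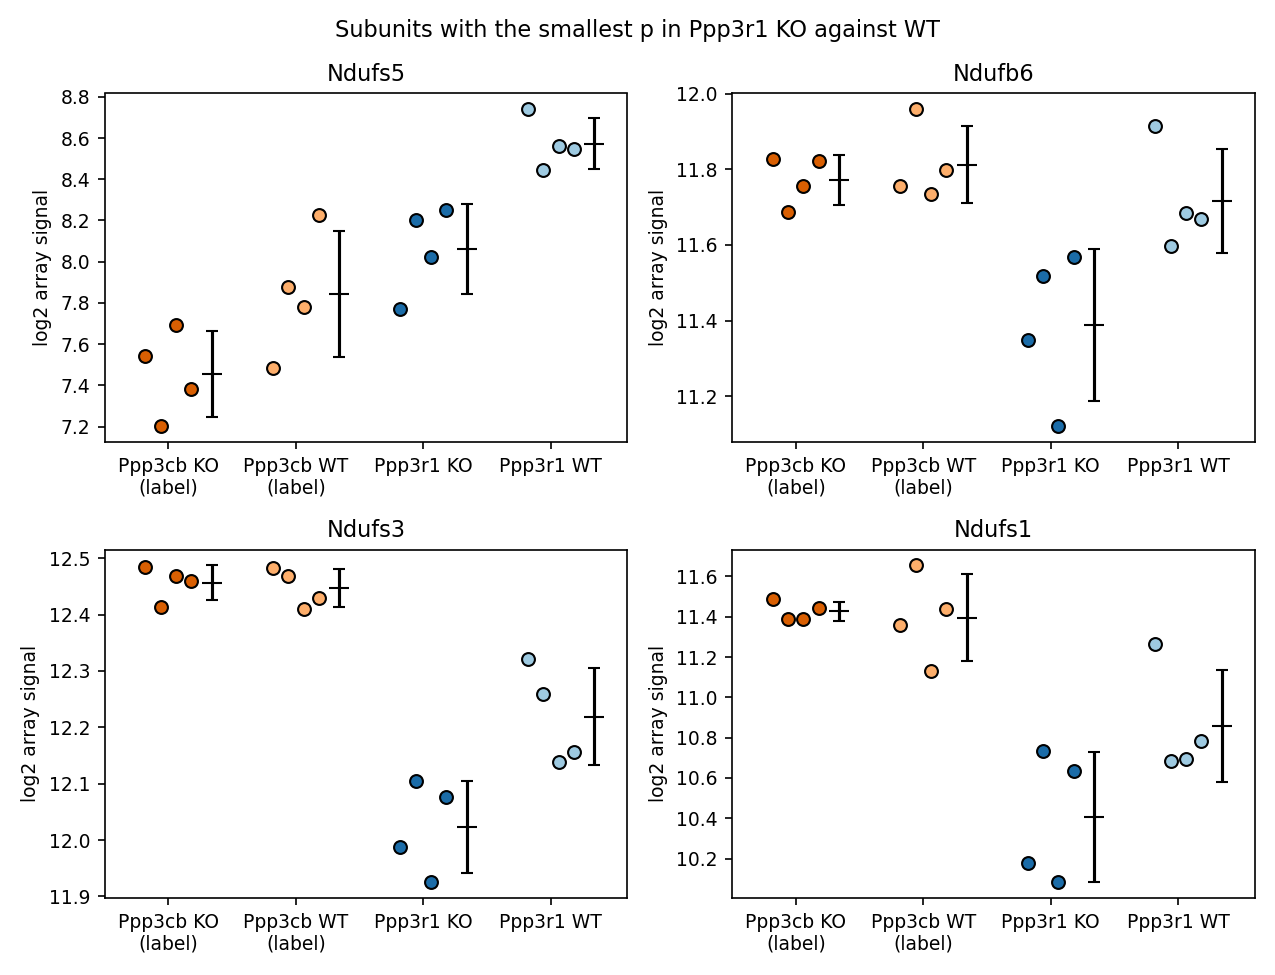
Log2 array signal of named complex I subunits on each of the 16 arrays, by group, with bars for the mean and SD (n = 4). Ndufs5, Ndufb6 and Ndufs3 show no overlap between Ppp3r1 KO and WT, while Ndufs1 overlaps at 1 KO array.

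Of the core subunits, the conserved ones that make up the catalytic core, 5 of the 6 measured were lower and the median was -0.21. Ndufs3, a core subunit of the Q module, read 11.99, 12.10, 11.92 and 12.08 in KO and 12.32, 12.26, 12.14 and 12.16 in WT animals. The groups did not overlap (log2 difference -0.20, SE 0.06, limma adjusted p = 0.363; exact permutation p = 0.0286), and a second probe set of the gene gave -0.22. Ndufs1, the largest subunit and the carrier of several iron-sulfur clusters of the N module, read 10.18, 10.73, 10.08 and 10.64 in KO and 11.27, 10.69, 10.69 and 10.78 in WT animals. KO animals 331 and 414 were well below all WT animals, animal 335 was above 2 of them, and WT animal 334 was far above the rest. The log2 difference of -0.45 (SE 0.15, limma adjusted p = 0.363; exact permutation p = 0.0857) became -0.31 without animal 334.

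Ndufv2, which holds an iron-sulfur cluster beside the flavin site, read 11.67, 11.93, 11.54 and 11.95 in KO and 12.10, 11.97, 11.94 and 11.95 in WT animals. Animals 331 and 414 lay farthest below WT, animal 335 just below every WT array and animal 416 among them (log2 difference -0.22, SE 0.08, limma adjusted p = 0.366), and without animal 414 the difference was -0.14. Ndufs8, a ferredoxin-like core subunit of the Q module, read 10.62, 11.14, 10.76 and 11.34 in KO and 11.37, 11.17, 11.16 and 11.33 in WT animals. Its difference of -0.29 (SE 0.13, limma adjusted p = 0.397) was -0.18 without animal 331, and of the KO animals only animal 416 reached the WT range. Ndufv1, which binds NADH and the flavin, read 10.85, 11.26, 11.03 and 11.51 in KO and 11.48, 11.36, 11.22 and 11.33 in WT animals. The KO range enclosed the WT range (log2 difference -0.19, SE 0.11, limma adjusted p = 0.493), and the difference was -0.08 without animal 331. Ndufs7, the core subunit next to the ubiquinone site, went the other way at 13.90, 14.00, 13.95 and 14.07 in KO and 13.81, 13.88, 13.91 and 14.02 in WT animals. The groups overlapped (log2 difference 0.07, SE 0.05, limma adjusted p = 0.581). The brightest probe set of each array read 14.93 to 15.04, and whether closeness to that top bears on Ndufs7 was not tested. Exact permutation gave p = 0.0857 for Ndufv2, 0.143 for Ndufs8, 0.286 for Ndufv1 and 0.257 for Ndufs7.

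By structural part, lower means were found in 9 of 10 subunits of the N module (median -0.12), 3 of 4 of the Q module (median -0.17), 5 of 5 around ND1 and the arms' interface (median -0.14), 5 of 5 around ND2 (median -0.23), 4 of 4 around ND4 (median -0.20) and 5 of 5 around ND5 (median -0.18). No part had a called member, and differences between parts were not tested. In the interface part, Ndufa9, which sits near the ubiquinone channel, read 10.48, 10.79, 10.45 and 10.90 in KO and 11.24, 10.84, 10.80 and 10.81 in WT animals. Animal 416 was above 3 of the 4 WT animals, the log2 difference was -0.27 (SE 0.12, limma adjusted p = 0.396), and without WT animal 334 it was -0.16. In the ND4 part, Ndufb5 read 11.40, 11.84, 11.40 and 11.80 in KO and 11.99, 11.73, 11.78 and 11.82 in WT animals (log2 difference -0.22, SE 0.10, limma adjusted p = 0.418). Here too animals 331 and 414 were the 2 lowest, and the value was -0.15 without animal 331. Exact permutation gave p = 0.2 for Ndufa9 and 0.257 for Ndufb5.

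The remaining subunits had limma adjusted p-values from 0.419 to 0.996. The larger values among them were Ndufa2 at -0.35 (SE 0.18), Ndufb7 at -0.30 (SE 0.14) and Ndufc1 at -0.30 (SE 0.15). The values closest to 0 were Ndufs6 at -0.0028 (SE 0.16), Ndufa7 at 0.02 (SE 0.10) and Ndufa1 at -0.02 (SE 0.14). Ndufa4, first named as a complex I subunit and since assigned to complex IV, had -0.22 (SE 0.11). For the 4 genes with a second probe set, both probe sets gave the same sign in this comparison, with Ndufa11 at -0.20 and -0.04 as the widest gap.

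The 4 KO animals did not contribute evenly. Animals 331 and 414 held the 2 lowest of the 8 values of the line in 26 of the 34 subunits. Measured against the WT mean, animal 331 was lower in 34 subunits (median -0.39) and animal 414 in 31 (median -0.33), while animal 335 was lower in 21 (median -0.05) and animal 416 in only 10 (median 0.08). The per-array median over the 34 subunits was 10.55, 10.87, 10.69 and 11.04 in KO animals 331, 335, 414 and 416 and 11.21, 10.87, 10.98 and 10.997 in WT animals 334, 336, 413 and 415. The group means were 10.79 ± 0.21 and 11.02 ± 0.14 (SD, n = 4 each), and the groups overlapped. Myh2, by contrast, was below every WT array in all 4 KO animals, at 9.85, 10.71, 9.46 and 9.86 against 11.30 to 12.40. Without animal 331 the median difference of the subunits was -0.09 with 26 lower, and without animal 416 it was -0.27.

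**Figure D3:**
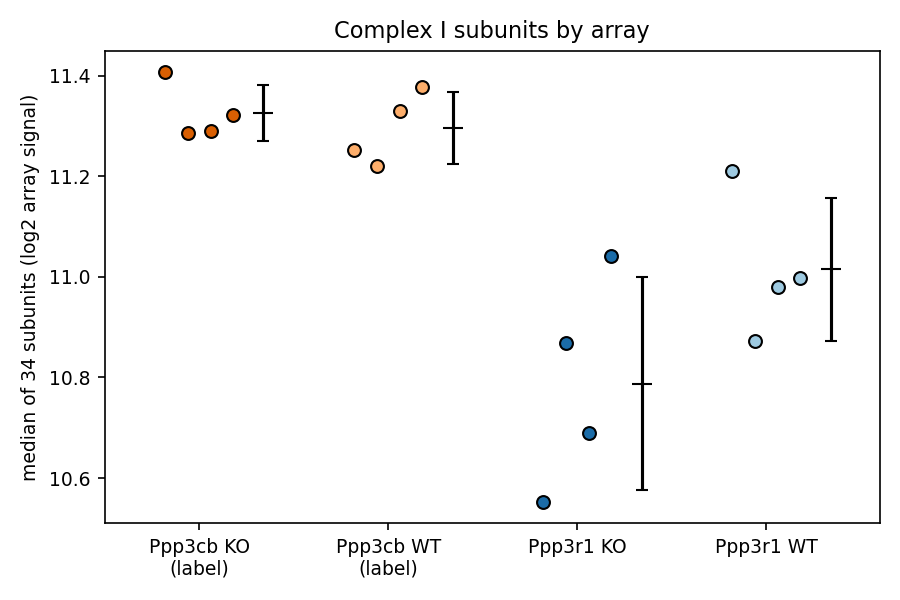
Median log2 signal of the 34 complex I subunits on each array (points), with the group mean and SD (bars, n = 4). The Ppp3cb arrays lie between 11.22 and 11.41 and overlap by label, and the Ppp3r1 KO arrays spread from 10.55 to 11.04.

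Other measures of the same arrays were set beside these medians. The array's own median over all probe sets was 6.94, 6.90, 6.87 and 6.82 in KO animals 331, 335, 414 and 416 and 6.81, 6.91, 6.87 and 6.83 in WT animals 334, 336, 413 and 415. Over these 8 arrays it ran against the complex I median (Pearson r = -0.84, Spearman rho = -0.83), and r was -0.55 over the 6 arrays left without animals 331 and 334, the farthest from the middle. Within the Ppp3cb line r was 0.02 (rho 0.07, n = 8). For Myh2, r was 0.50 in the Ppp3cb line (rho 0.67, n = 8; 0.35 without the 2 farthest arrays), and no value is given for the Ppp3r1 line, where its KO and WT arrays form separate clusters of 4. Myh7, the myosin of slow fibers, had r = -0.34 (rho -0.55) in the Ppp3r1 line and r = -0.61 (rho -0.52) in the Ppp3cb line, or -0.16 and -0.25 without the 2 farthest arrays of each. Points share array and normalization, so these are descriptions. With the array median, centered within each line, added to the model, the median KO difference of the subunits was -0.12 with 29 lower and 0 called.

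**Figure D4:**
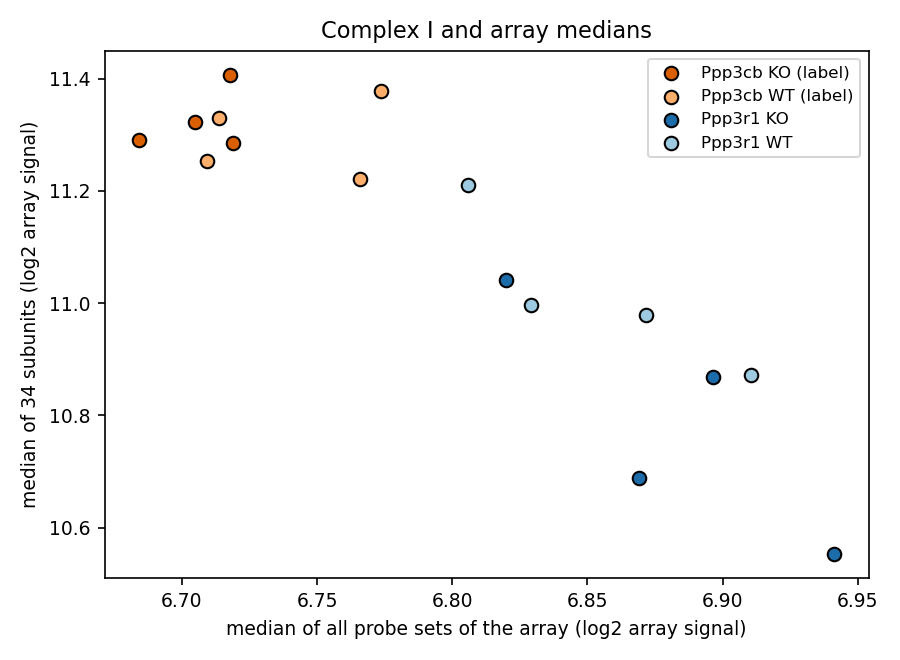
Median log2 signal of the 34 subunits against the median of all probe sets on the same array, 1 point per array, colored by group. Points of the Ppp3r1 line run downward from 11.21 at an array median of 6.81 to 10.55 at 6.94, while the Ppp3cb points, between 6.68 and 6.77, have r = 0.02.

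The muscle fiber markers differed as well. All 6 had lower means in KO muscle and 0 were called (median -0.05), with Pvalb at -0.13 (SE 0.05) and Mb, the oxygen store of oxidative fibers, at -0.13 (SE 0.11). Their summed linear signal was 98851 to 103156 on the KO arrays and 104347 to 107888 on the WT arrays, with no overlap. Markers of other cell types also differed between these groups, without any called member. The 5 tendon markers were lower in 4 cases (median -0.56), with a summed linear signal of 787 to 1622 in KO and 1447 to 2452 in WT muscle. The 6 fibroblast markers were lower in 6 cases (median -0.24; 6781 to 7125 in KO and 6270 to 8773 in WT) and the 5 endothelial markers in 4 (median -0.22; 1744 to 3293 and 2320 to 3089). The 7 macrophage markers were higher in 5 cases (855 to 972 in KO and 731 to 938 in WT), the 3 Schwann cell markers in 3, and the 6 adipocyte markers were split. The part of these markers' cells, or of the fiber signal, in the complex I values was not tested.

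Genes around the enzyme were read in the same contrast. Ndufab1, the acyl carrier protein that is also a complex I subunit, had -0.35 (SE 0.12, limma adjusted p = 0.363). The mitochondrially encoded subunit mt-Nd3, named ND3 on the array, had -0.17 (SE 0.10, limma adjusted p = 0.492), and a second probe set gave -0.15. Of 16 assembly factors, which build the enzyme without staying in it, 15 were lower and 0 were called (median -0.19), among them Ndufaf5 at -0.32 (SE 0.11), Dmac1 at -0.29 (SE 0.10) and Ndufaf3 at -0.25 (SE 0.11). Of 40 genes of the other respiratory complexes and cytochrome c, 37 were lower and 0 were called (median -0.15), among them Cycs, which carries electrons to complex IV, at -0.27 (SE 0.07), Uqcr11 of complex III at -0.33 (SE 0.10) and Atp5pb of ATP synthase at -0.25 (SE 0.09). Of 74 mitochondrial ribosomal proteins 57 were lower and 0 were called (median -0.06), with Mrpl40 at -0.32 (SE 0.09), Mrpl33 at -0.28 (SE 0.09) and Mrps10 at 0.32 (SE 0.12). Of 10 transcriptional regulators of mitochondrial genes 6 were lower and 0 were called, with the estrogen-related receptor Esrrg at -0.47 (SE 0.16), the fatty acid receptor Ppard at 0.19 (SE 0.10) and Gabpa, an ETS factor subunit, at -0.22 (SE 0.12).

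In the Ppp3cb line, KO and WT arrays were compared by label with the reservation given above. The subunits were evenly split, 17 lower and 17 higher in the KO-labelled group, with a median log2 difference of -0.000445 against 0.01 over all probe sets. None was called, where 0% of probe sets were called in either direction. At an unadjusted p under 0.05, 1 member was lower, where 0.859% of probe sets were, and 0 were higher, where 0.872% were. In no member did the labelled groups separate, where 0.734% of probe sets lay wholly below and 0.774% wholly above. The complex I median was 11.33 ± 0.06 (SD, n = 4) in KO-labelled and 11.30 ± 0.07 (SD, n = 4) in WT-labelled arrays. The 6 core subunits ranged from -0.0056 to 0.04. The even split depended on scaling, with 7 members lower when each array was centered on its median and 30 lower with the array median in the model.

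Ndufs5 was again the subunit with the smallest p. It read 7.54, 7.20, 7.69 and 7.38 in KO-labelled animals 18, 5, 6 and 9 and 7.48, 7.88, 7.78 and 8.22 in WT-labelled animals 12, 2, 23 and 24. The groups overlapped (log2 difference -0.39, SE 0.14, limma adjusted p = 0.9998; exact permutation p = 0.0857), and the value was -0.26 without animal 24, whose Ppp3cb signal contradicted its label. Next came Ndufa6, an accessory subunit of the matrix arm, which ran from 10.97 to 11.11 in KO-labelled and from 10.98 to 11.24 in WT-labelled animals (log2 difference -0.10, SE 0.08, limma adjusted p = 0.9998). Ndufa3 of the membrane arm ran from 11.27 to 11.39 and from 11.12 to 11.34 (log2 difference 0.08, SE 0.07, limma adjusted p = 0.9998). Both sets of arrays overlapped in each gene.

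Arranged by the Ppp3cb signal itself, animals 18, 5, 23 and 24 lay below 11 and animals 6, 9, 12 and 2 above it. These groups come from a measured value and not from the labels, so differences are given without a test. The subunits were higher in the arrays with less Ppp3cb in 23 of 34 cases, with a median difference of 0.05 (0.01 over all probe sets and -0.03 over those as bright as the members). The complex I median was 11.35 ± 0.05 and 11.27 ± 0.04 (SD, n = 4 each). The largest differences were those of Ndufa12 at 0.24, with means of 9.46 and 9.22, Ndufa4 at 0.20, with 11.36 and 11.16, and Ndufa2 at 0.16, with 10.43 and 10.27. For Ndufa12 and Ndufa2 the arrays below and above 11 overlapped, and animal 24 read highest. It read 9.78 for Ndufa12, where the other arrays below 11 read 9.28 to 9.40, and 10.73 for Ndufa2, where they read 10.23 to 10.39. Ndufa4 lay wholly above in the arrays with less Ppp3cb, as did 6.58% of all probe sets, and Ndufb2 lay wholly below, as did 5.58%.

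The difference between the KO effects of the lines was tested directly. Its Ppp3cb side is the comparison by label, with the reservation given above. The Ppp3r1 difference was the lower of the pair in 30 of 34 subunits, with a median of -0.18 against 0.003 over all probe sets, and none was called, where 0% of probe sets were. At an unadjusted p under 0.05, 3 members were lower, where 2.75% of probe sets were, and 0 were higher, where 2.56% were. The smallest p-values were those of Ndufs3 at -0.20 (SE 0.09, limma adjusted p = 0.821), Ndufs1 at -0.48 (SE 0.22, limma adjusted p = 0.821) and Ndufb6 at -0.29 (SE 0.14, limma adjusted p = 0.821). In the Ppp3cb line these genes had differences of 0.01, 0.03 and -0.04. The subunits' differences by label in the lines are thus not shown to differ. With the array median in the model, the median was -0.07 with 24 lower.

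Of the comparisons made, the one with called subunits was between the WT groups of the lines. In WT muscle of the Ppp3r1 line 31 of 34 subunits were lower than in WT-labelled muscle of the Ppp3cb line (median log2 difference -0.23), and 16 passed the test. Lower calls were made in 14 members, or 41.2%, where 24.3% of all probe sets and 34.5% of those as bright as the members were called lower. Higher calls were made in 2 members, Ndufs5 and Ndufa3, where 10.7% of all probe sets were called higher. Of the 7320 probe sets as bright as the members, 236 were called higher. The 4 arrays of a group lay wholly below in 14 members, where this held for 22.7% of all probe sets, and wholly above in 2, where this held for 8.47%. The median over all probe sets was -0.10 and over the bright ones -0.21, so the members' median was close to that of probe sets of their brightness. Line, breeding and the handling of the arrays cannot be told apart in this comparison, and 2 of the 4 WT-labelled Ppp3cb arrays contradict their label. Counting both directions, the 16 called members are 47.1% of the members, where 35% of all probe sets were called. Of the 7320 as bright as the members, 2758 were called. Without the 4 arrays that contradict their label 6 members were called, or 17.6%, below the 21.8% of all probe sets. Without WT animal 336 of the Ppp3r1 line 8 were called (23.5%, where 20.3% of all probe sets were), and after a repeated quantile normalization 10 were (29.4%, where 25.5% were). With each array centered on its median 22 were called (64.7%, where 42.8% were).

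Ndufs5 rose by 0.73 (SE 0.14, limma adjusted p = 0.00207) while most members were lower, from the WT values of the Ppp3cb line given above to those of the Ppp3r1 line, with no overlap between them. Ndufa3 rose by 0.22 (SE 0.07, limma adjusted p = 0.0321). Ndufa5, a subunit of the Q module, read 8.88, 8.57, 8.52 and 8.42 in WT animals 334, 336, 413 and 415 and 9.10, 9.27, 9.01 and 9.34 in WT-labelled animals 12, 2, 23 and 24. It fell by 0.58 (SE 0.12, limma adjusted p = 0.00239). Ndufa1, a small membrane subunit encoded on the X chromosome, read 7.72, 7.21, 7.69 and 7.74 in the first set and 8.13, 8.06, 8.26 and 8.39 in the second. It fell by 0.62 (SE 0.14, limma adjusted p = 0.00412), a call that was lost without the arrays that contradict their label (-0.50, limma adjusted p = 0.0591). Among the core subunits Ndufs3, Ndufv1, Ndufs1 and Ndufs8 fell, by 0.23, 0.39, 0.54 and 0.45, while Ndufv2 had a difference of -0.12 and Ndufs7 of -0.002.

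The same contrast was lower in all 40 genes of the other respiratory complexes, with 15 called lower (37.5%), and in all 16 assembly factors, with 8 called lower (50%). As given above, 24.3% of all probe sets and 34.5% of those as bright as the members were called lower. Of 74 mitochondrial ribosomal proteins 33 were called lower, as were 7 of 10 regulators. The contrast was also lower in all 7 macrophage markers, with 7 called lower (median -0.83; summed linear signal 731 to 938 in WT muscle of the Ppp3r1 line and 1234 to 1772 in that of the Ppp3cb line), while Myh2 fell by 1.03 and Myh7 fell by 1.91. Lower calls were also made in 3 of 6 fibroblast, 2 of 5 endothelial and 2 of 3 Schwann cell markers. Tendon and adipocyte markers had 0 calls, and of 6 muscle fiber markers 1 was called lower and 1 higher. The part of these in the complex I values was not tested.

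The subunits varied together from animal to animal. After the 4 group means were removed, 529 of the 561 pairs of subunits were positively correlated over the 16 arrays, with a median r of 0.56 and a range from -0.36 to 0.97. The correlation of a subunit with the mean of the others exceeded 0.5 in 28 of 34 members, while 17.9% of all probe sets, and 29% of those as bright as the members, reached that with the complex I mean. It was highest for Ndufb7 at 0.96, Ndufb9 at 0.94 and Ndufc1 at 0.93. It was lowest for Ndufa3 at 0.24, Ndufa6 at 0.27 and Ndufa12 at 0.32. Ndufs7 stood at 0.44. The deviations were widest on the Ppp3r1 KO arrays, so those 4 weigh most in these correlations. The complex I mean had an SD of 0.22 there and 0.09 in Ppp3r1 WT. It had an SD of 0.04 in KO-labelled and 0.06 in WT-labelled Ppp3cb arrays. Whether the subunits vary together within each group alone was not tested. All pairs share arrays and normalization, and these values are descriptions.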

How the data were processed

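RNA from 16 gastrocnemius muscles was measured on 1-color Affymetrix arrays. Per the submitters' processing notes, GCOS 1.0 and RMA, a background correction, quantile normalization and probe set summary, gave the authors' deposited log2 values. The sources used here name no genome build. The other deposited table of log2 values differed in 0 values, and the deposited ratio columns equalled the linear value over the line's median. The platform's annotation listed 23410 of 35557 probe sets, 21789 with 1 symbol, 1621 with several (not used for names) and 12147 unlisted.

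A limma 3.58.1 model (R 4.3.3, intensity trend) with 1 mean per group was fitted to the 16 arrays over the 15252 single-symbol probe sets at or above the 30th percentile (log2 6.18). Benjamini-Hochberg adjustment ran over this whole set, and an adjusted p under 0.05 was called. Groups share 1 estimate of the spread, although the complex I medians spread most widely on the Ppp3r1 KO arrays. Functions were tested on simulated data. There, 55% of differences of 0.5 on the log2 scale in the Ppp3r1 comparison were called, and 96% of those of 1. Smaller differences, such as most of those of the members, were not simulated. Alternatives covered the filter, normalization, weights, variance prior, animal-number series as a block, the probe set rule, the threshold, arrays against their label and each array left out. The members and gene lists were chosen with earlier results of these data known. Per-array values were given for the members with the smallest p (8 in the Ppp3r1 comparison, 3 in the others, and all core subunits) and, by Ppp3cb value, means for the 3 with the largest difference; other lists name at most 3. Ndufb2 in that split and Ndufa11 among second probe sets were named after their values were seen, as were the subunits at the extremes of the remaining differences and of the correlations.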

Additional observations from a re-analysis of the deposited data

Results flagged for a closer look

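In Ppp3r1 WT muscle, 1 of the 4 animals stood apart from the other 3 in 5 subunits by Dixon's gap test at the 95% level. Animal 334 was high in 4 of them. It read 11.24 for Ndufa9, where the others read 10.80 to 10.84, 8.52 for Ndufb3 (8.27 to 8.29), 11.27 for Ndufs1 (10.69 to 10.78) and 12.10 for Ndufv2 (11.94 to 11.97). Animal 336 was low for Ndufa1 at 7.21, where the others read 7.69 to 7.74. In all, 140 groups of 4 arrays were examined, of which chance would single out about 1 in 20, and members vary together.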

How the results depend on the processing

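The subunits with the smallest p in each tested comparison, and the core subunits in the Ppp3r1 comparison, were followed through the alternatives. None of these values changed sign. Ndufs6, Ndufa7 and Ndufa1, closest to 0 in the Ppp3r1 comparison, were not followed there. Some other members did change sign, since the number lower moved with the setting. In either KO comparison and in their difference, 0 members were called under any alternative run. Leaving out each array in turn, the median of the Ppp3r1 difference ran from -0.27 to -0.09 and the number lower from 26 to 33; settings that kept all arrays gave -0.20 to -0.08 (array weights). In the Ppp3cb comparison by label the majority direction depended on the setting: the number of lower members moved from 17 to 7 with each array centered on its median, 10 with array weights, 11 without the arrays that contradict their label, and 30 with the array median as a covariate, which was chosen after seeing the data; by array left out it ran from 12 to 22. Between WT groups the 16 calls became 10 after a repeated quantile normalization, 6 without the arrays that contradict their label, where Ndufa1 also lost its call (-0.50, limma adjusted p = 0.0591), and 8 to 18 by array left out, the 8 being without WT animal 336; it was 20 with array weights and 22 with each array centered. The median there was -0.34 with centered arrays, a scaling that moved the median of all probe sets from -0.10 to -0.21 and the calls from 3710 lower and 1633 higher to 5674 and 854 (2950 and 932 after quantile normalization). By Ppp3cb value, 6 members were lower after quantile normalization. Of the values of single subunits under alternatives, 506 kept direction and side of the threshold. No paired analysis was possible because KO and WT animals share no numbers; blocking on the number series, 32 members were lower in Ppp3r1 KO muscle (median -0.18, 0 called). Fitting a line alone does not apply to the difference between lines. Exact tests of 4 against 4 arrays cannot go below 0.0286, and the spread between animals limits how small a difference can be seen. All 34 members lay well above the filter.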
